A study of Mus musculus with 2 samples.

Results

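The clustered histone genes are the genes whose names on the array begin with Hist1, Hist2, Hist3 or Hist4, after the chromosomal cluster they lie in. All non-control probes with such a gene name were taken, which gave 34 genes and 44 probes, of 27962 gene names and 41174 probes on the array. The genes comprise 6 for the linker histone H1, 11 for H2A, 8 for H2B, 3 for H3 and 6 for H4. By cluster, 24 belong to Hist1, 6 to Hist2, 3 to Hist3 and 1 to Hist4.

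The arrays hold 2 tumours of 1 group, named tumour 2 and tumour 1 after the numbers in their labels. Each grew for 2 weeks in a male C57BL/6J mouse after 1000000 RMS3 cells in 200 µl of buffer were injected under the skin, and its total RNA was hybridised to an Agilent single-colour (Cy3) array of its own. RMS3 is a mouse line of the type PRMS in the labels, which do not say what the letters stand for. The labels give no untreated, uninjected or cultured control, both tumours come from 1 line, and a protocol label calls the harvested tumours metastatic although the other labels describe subcutaneous ones. Every difference sets 1 tumour against 1, so none could be checked in replicates or given a p-value, and precision is limited by the 2 arrays.

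Histone proteins package DNA into nucleosomes: H2A, H2B, H3 and H4 form the core that DNA wraps around, and H1 binds the linker DNA between cores. The clustered genes are transcribed mainly in S phase, when newly copied DNA needs histones. Their mRNAs mostly end in a conserved stem-loop bound by the protein SLBP in place of a poly(A) tail, and replication-independent variant histones are made from ordinary polyadenylated mRNAs outside the clusters. The Quick Amp labelling kit primes from poly(A) tails, so a histone level here holds what that primer reached, and its part in the levels was not tested. Genes of 1 class are close copies of each other, and which copies a probe reads was not tested, since probe sequences were not used here.

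The starts of the clustered genes carry short promoter elements that have long been known to differ by histone class. Of the 34 genes, 31 were matched by accession to the RefSeq genes of GRCm38.p6, and 27 of those had a promoter sequence in the RefSeq table, with 28 starts in all. The following sequences are the 170 bases before the annotated start of chosen members. Hist3h2ba, Hist1h4a and Hist1h1d were at least 2-fold apart between the tumours. Hist1h3a was as well but had no promoter sequence in the RefSeq table. Hist1h1e and Hist1h4f are shown as other H1 and H4 genes, Hist3h2a as a neighbour in the Hist3 cluster, and Hist1h2aa and Hist1h2ba as a divergent pair. The sequences run 5′ to 3′ along the gene. Capitals mark the 4 motifs searched on either strand, which are the TATA box, the CCAAT box, the octamer and the H1 box.
Hist1h1d (chr13:23554862-23555031, plus strand): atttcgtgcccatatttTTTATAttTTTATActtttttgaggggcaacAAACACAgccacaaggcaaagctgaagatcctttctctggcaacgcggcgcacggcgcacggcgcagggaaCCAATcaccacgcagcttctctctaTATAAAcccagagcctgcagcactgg
Hist1h1e (chr13:23622559-23622728, minus strand): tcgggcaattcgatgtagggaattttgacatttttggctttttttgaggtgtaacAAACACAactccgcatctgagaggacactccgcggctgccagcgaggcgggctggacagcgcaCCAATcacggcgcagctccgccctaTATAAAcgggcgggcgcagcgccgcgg
Hist1h2aa (chr13:23934267-23934436, plus strand): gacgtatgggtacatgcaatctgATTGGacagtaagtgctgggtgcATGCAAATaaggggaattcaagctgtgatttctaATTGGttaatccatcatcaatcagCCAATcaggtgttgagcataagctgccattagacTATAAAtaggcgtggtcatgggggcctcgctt
Hist3h2a (chr11:58954515-58954684, plus strand): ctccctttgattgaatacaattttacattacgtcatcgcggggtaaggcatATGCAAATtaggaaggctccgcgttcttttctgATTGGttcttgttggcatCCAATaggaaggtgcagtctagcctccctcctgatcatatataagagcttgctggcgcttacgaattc
Hist1h2ba (chr13:23934157-23934326, minus strand): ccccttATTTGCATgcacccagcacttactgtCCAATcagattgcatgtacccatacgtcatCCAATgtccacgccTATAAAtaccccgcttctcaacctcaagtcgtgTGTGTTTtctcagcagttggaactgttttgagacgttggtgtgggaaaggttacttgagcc
Hist3h2ba (chr11:58948741-58948910, plus strand): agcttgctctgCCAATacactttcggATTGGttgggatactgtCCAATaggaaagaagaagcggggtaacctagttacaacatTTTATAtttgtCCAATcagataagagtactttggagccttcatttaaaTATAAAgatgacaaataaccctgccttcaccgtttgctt
Hist1h4a (chr13:23761250-23761419, minus strand): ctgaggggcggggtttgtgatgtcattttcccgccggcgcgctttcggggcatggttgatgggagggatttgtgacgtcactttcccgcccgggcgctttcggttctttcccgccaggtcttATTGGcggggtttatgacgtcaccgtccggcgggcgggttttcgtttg
Hist1h4f (chr13:23551669-23551838, minus strand): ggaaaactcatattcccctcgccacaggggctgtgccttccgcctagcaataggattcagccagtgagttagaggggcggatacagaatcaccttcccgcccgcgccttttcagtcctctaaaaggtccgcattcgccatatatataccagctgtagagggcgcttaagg

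The H1 starts held CCAAT throughout and the H1 box in most cases. The letters AAACACA, known as the H1 box, lay within 250 bases before 5 of 6 H1 starts, and all 6 held CCAAT. Over all 32851 RefSeq starts of the same length the shares were 6.25% for AAACACA and 33.8% for CCAAT, counting both strands. The H1 box also lay before 2 of 10 H2A and 2 of 6 H2B starts, and the TATA box before 4 of 6 H1 starts. In the sequences of Hist1h1d and Hist1h1e above, the H1 box, the CCAAT box and the TATA box nearest the start follow each other in that order.

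The octamer, ATTTGCAT, was found among H2A and H2B starts. It lay before 6 of 10 H2A starts and 4 of 6 H2B starts, and before none of the H1, H3 and H4 starts, against 1.6% of all starts. In each of the 6 H2A cases it lay on the strand opposite to the gene, and in each of the 4 H2B cases on the gene's own strand. Hist1h2aa and Hist1h2ba, whose genes face away from each other 280 bases apart, share 1 and the same octamer, which reads ATGCAAAT in the sequence of Hist1h2aa and ATTTGCAT in that of Hist1h2ba.

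The TATA box, TATAAA, was found before 15 of 28 starts of clustered histone genes (53.6%), against 12.4% of all starts. CCAAT was found before 25 of 28 (89.3%), including every H2A and H2B start. The 4 H4 starts held CCAAT in 2 cases, one of them Hist1h4a above, while Hist1h4f held none of the 4 motifs in the 170 bases shown. A match describes the letters in the window only, positions depend on the annotated start, and neighbouring genes that share a window are not independent.

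**Figure D1:**
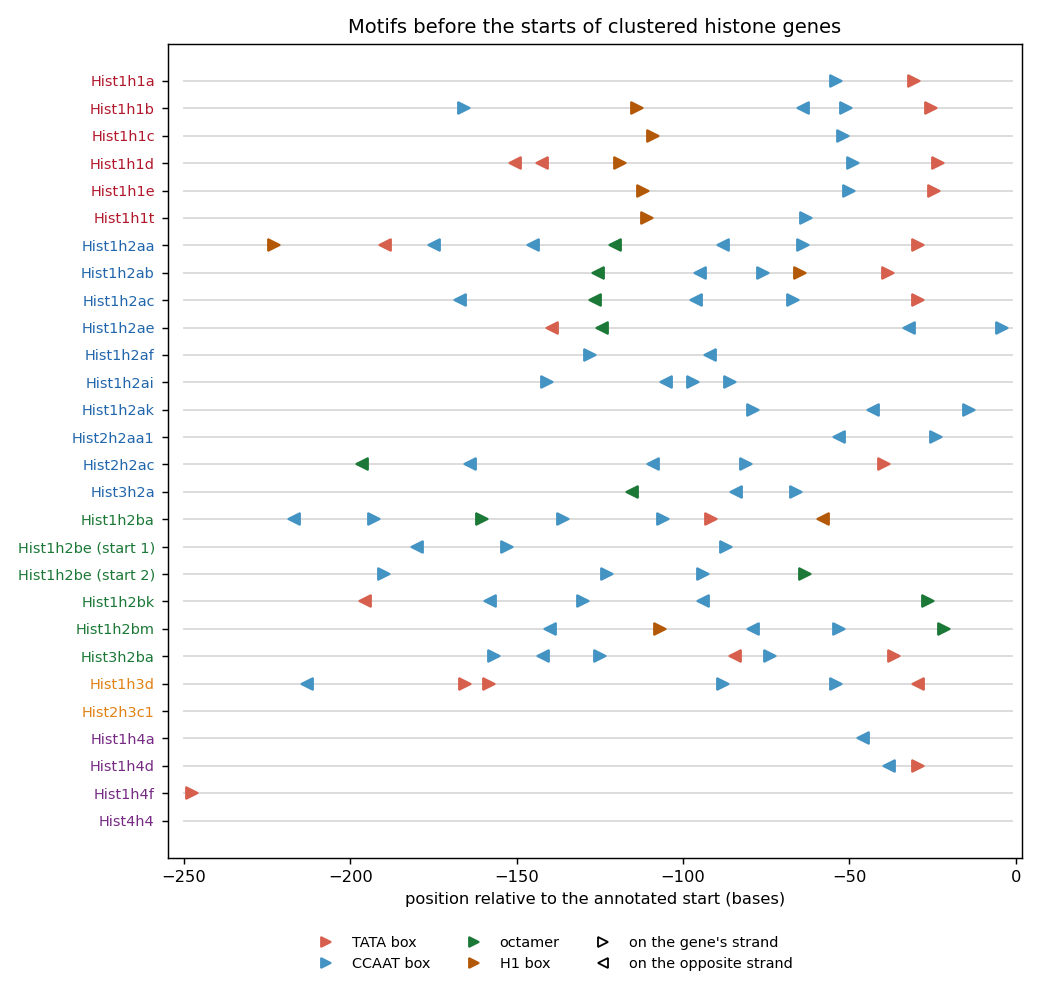
Positions of 4 motifs in the 250 bases before 28 annotated starts of 27 clustered histone genes, with 1 row per start and gene names coloured by class. The x axis gives bases relative to the start, and arrowheads point right for the gene's strand and left for the opposite strand; the octamer appears in 6 H2A and 4 H2B rows, pointing left in H2A and right in H2B.

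Levels are given as log2 of the processed signal minus log2 of the array's 75th percentile, so that 0 is the 75th percentile of that array and a difference of 1 is 2-fold. Of all non-control spots 66.1% were well above background on the array of tumour 2, against 62.3% on that of tumour 1. The array of tumour 1 had 1071 non-uniform spots, against 43 on that of tumour 2, and 95% of its flags lie in rows up to 338. Spots within 2 rows and columns of a flag on the array of tumour 1, or of a high local background on that of tumour 2, were therefore kept apart. This left 29 of the 44 histone probes, in 23 of the 34 genes.

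Most of the clustered histone genes that could be read were above background in both tumours. Of the 23 genes with a kept spot, 21 were, against 61.3% of the 22250 genes on the array with a kept spot. Hist2h2aa2, an H2A gene, was well above background in tumour 2 only, at -4.96 and -5.68 with its probes, which gives at least 1.76-fold and at least 1.08-fold over tumour 1. On the whole array 3.38% of genes were above background in tumour 2 only. Hist1h2be, an H2B gene, was well above background in neither tumour. No histone spot was saturated. The 21 genes above background in both tumours are called readable here. Repeat spots of other probes gave a technical standard deviation of 0.27 for a difference of single spots, which covers error within an array and not between arrays, and no histone probe was printed more than once.

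Over the 21 genes together, 17 were higher in tumour 2 and 4 in tumour 1, with a median difference of 0.29 (-0.51 with normexp background correction), against -0.01 over all 13647 genes measured in both tumours. Of those 13647 genes, 6611 were higher in tumour 2. With normexp, 12 of the 21 histone differences changed sign. At least 2-fold higher in tumour 2 were 4 of 21 (Hist3h2ba, Hist1h4a, Hist1h3a and Hist1h1d), against 2.56% of all genes. None was at least 2-fold higher in tumour 1, against 3.82% of all genes.

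The sign of that median depends on the background correction. With normexp the median of all genes itself stood at 0.69, and 43.7% of all genes were past 2-fold towards tumour 2, beside 4 of the 21 histone genes. With normexp fitted without the spots of high local background on the array of tumour 2 it was 0.21. In the other 11 alternatives it lay between 0.15 and 0.30.

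The H1 class had 2 readable genes, both higher in tumour 2. Hist1h1e, which encodes the linker histone H1.4, stood at 1.97 in tumour 2 and 1.14 in tumour 1, differing by 0.84 (1.79-fold). The H1 median of 0.94 rests on these 2 genes, and of the 5 class medians it was the one that kept its sign under all 13 alternative settings, with a range of 0.28 to 2.35. The 2.35, with the lower rows only, is Hist1h1d alone, and the 0.28, with no filter on dim probes, holds Hist1h1d at -0.27. With all unflagged spots the median was 0.89 and included spots near a flag.

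Hist1h1d, which encodes linker histone H1.3, gave unlike answers with its probes. The first stood at -2.17 in tumour 2 and -1.90 in tumour 1, differing by -0.27. The second stood at 0.39 in tumour 2 and -1.96 in tumour 1, differing by 2.35 (5.1-fold), and the third was well above background in neither tumour. The gene's difference of 1.04 is the median of probes that lie on opposite sides of 0, so it describes neither. It was below 2-fold in 5 of 13 alternatives, -0.27 with no filter on dim probes among them, and 2.35 with the brightest probe.

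The H2A genes were close between tumours. Of 9 readable genes 7 were higher in tumour 2, with a median difference of 0.19 and a range of -0.77 to 0.35. None reached 2-fold, against 2.56% of all genes towards tumour 2 and 3.82% towards tumour 1. At such shares few or none of 9 genes would, so this count does not set H2A apart. With all unflagged spots the median was -0.00, and with normexp background correction it was -0.62. Hist1h2aa, the testis H2A of mouse spermatogenic cells, stood at 7.21 in tumour 2 and 6.90 in tumour 1 (difference 0.30). Which H2A copies its 1 probe reads was not tested. Hist2h2ac stood at 6.64 in tumour 2 and 6.35 in tumour 1 (difference 0.29). Both lie above the 75th percentile of either array.

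Hist3h2a, the H2A gene of the Hist3 cluster, had 3 readable probes that spread over more than 2-fold. Their differences were 0.91, 0.35 and -0.20. The first stood at -0.06 in tumour 2 and -0.97 in tumour 1, the second at 5.32 in tumour 2 and 4.97 in tumour 1, and the third at 2.39 in tumour 2 and 2.59 in tumour 1. Of the 3 members with several readable probes, 2 had probes at least 2-fold apart, namely Hist3h2a and Hist1h1d, as had 10.2% of 3627 such genes on the array.

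The 2 H2A genes higher in tumour 1 were Hist1h2ac and Hist2h2aa1. Hist1h2ac stood at -5.44 in tumour 2 and -4.67 in tumour 1, differing by -0.77, which became 2.91 with normexp, and it lay near the lowest levels called well above background (-6.33 in tumour 2 and -5.78 in tumour 1). Hist2h2aa1 stood at 0.52 in tumour 2 and 0.55 in tumour 1, which is level within the error of repeat spots. Hist1h2af had 3.52 in tumour 2 and 3.44 in tumour 1. The differences of Hist1h2ab, Hist1h2ai and Hist1h2ak lay between 0.19 and 0.20.

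The H2B class held the largest gene-level difference among the readable clustered histone genes. Hist3h2ba, from the Hist3 cluster, had a processed signal of 175.5 in tumour 2 and 58.1 in tumour 1, or -2.36 and -4.10 on the relative log2 scale. Its difference of 1.74 (3.33-fold) stayed at least 2-fold in each of the 12 alternatives that kept the gene. With 1 probe, several of these settings could not change the value or only shifted all genes alike, so they are not independent checks. The lowest value was 1.10, with normexp fitted without the spots of high local background. The 75 spots around the spot of Hist3h2ba had a median difference of 0.08.

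The other readable H2B genes differed by less than the technical error. Hist1h2ba, the testis H2B, stood at 2.47 in tumour 2 and 2.51 in tumour 1. Which H2B copies its 1 probe reads was not tested. Hist1h2bk stood at 2.02 in tumour 2 and 2.09 in tumour 1. Hist1h2bc stood at 4.0 in tumour 2 and 3.84 in tumour 1 with its first probe, and at 0.09 in tumour 2 and 0.04 in tumour 1 with its second. The class median of 0.03 changed sign in 6 of 13 alternatives, so it gives no direction.

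The H3 class had 2 readable genes, of which 1 was at least 2-fold apart. Hist1h3a had a processed signal of 170.6 in tumour 2 and 86.0 in tumour 1, or -2.40 and -3.53 on the relative log2 scale, a difference of 1.13 (2.19-fold). Under 3 of its 12 alternatives it was below 2-fold, with a lowest value of 0.78, and it was higher in tumour 2 in all 12. As the gene has 1 probe, several of these settings could not change the value. Hist2h3c1 stood at 6.22 in tumour 2 and 6.18 in tumour 1.

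All 4 readable H4 genes were higher in tumour 2, with a median difference of 0.43, except that normexp correction turned 3 of them. Hist1h4a had a processed signal of 4658 in tumour 2 and 1720 in tumour 1, or 2.37 and 0.79 on the relative log2 scale, a difference of 1.58 (2.99-fold). It was at least 2-fold in 11 of 12 alternatives, the exception being normexp at 0.84. Hist1h4a has 1 probe, so several of these settings could not change the value. Its spot lies in column 1 at the array's edge, and its 35 neighbours had a median difference of -0.00.

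The other H4 genes moved less. Hist4h4, the gene alone in its cluster, stood at 1.11 in tumour 2 and 0.67 in tumour 1 (difference 0.45). Hist1h4f stood at 4.19 in tumour 2 and 3.77 in tumour 1 (difference 0.42). Hist2h4 stood at 2.77 in tumour 2 and 2.48 in tumour 1 (difference 0.29). These are the 3 that turned with normexp, where the class median was -0.28.

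**Figure D2:**
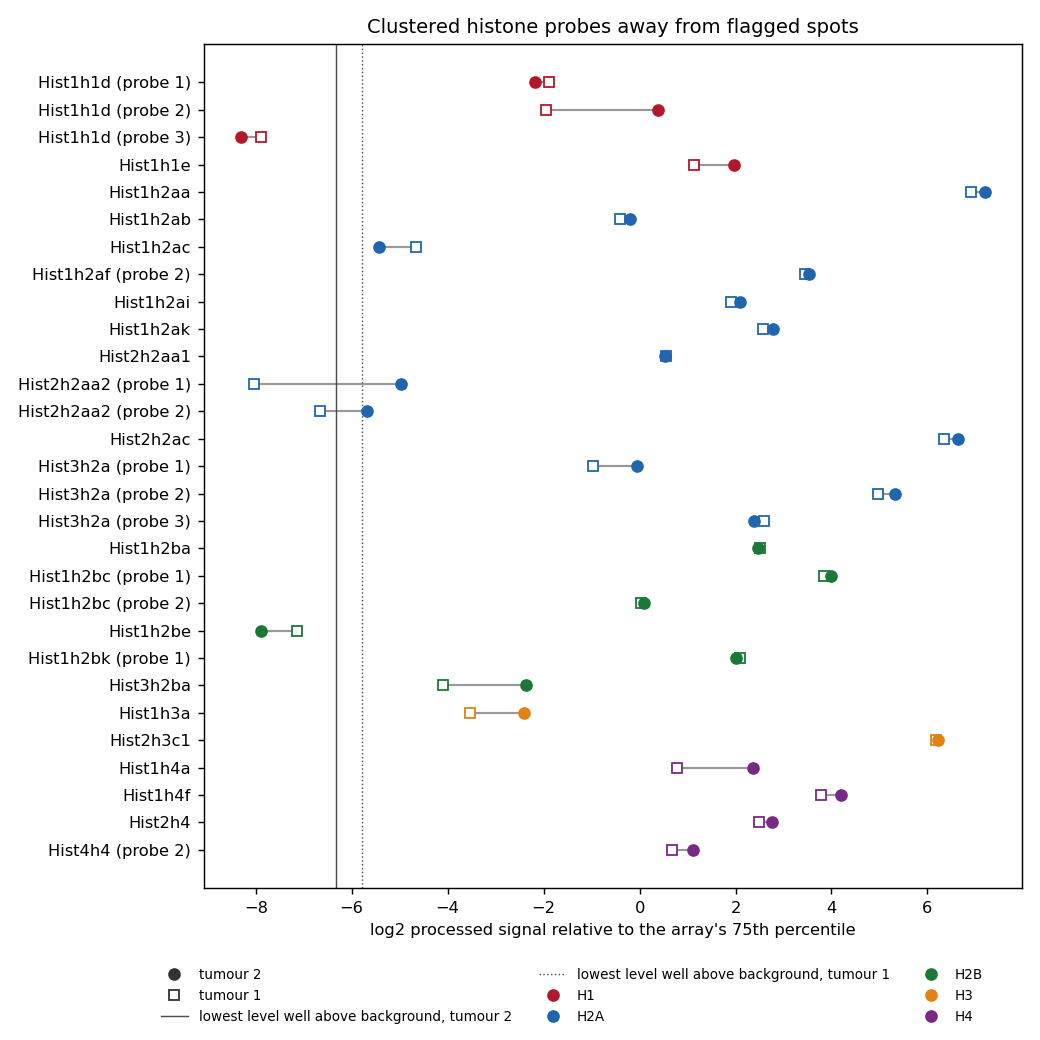
Level of each of 29 histone probes away from flagged spots (x axis, log2 processed signal relative to the array's 75th percentile), grouped by class, with filled circles for tumour 2, open squares for tumour 1 and a line joining them. Vertical lines mark the lowest level well above background; most pairs nearly touch, and the longest joining lines above those marks are those of Hist1h1d probe 2, Hist3h2ba, Hist1h4a and Hist1h3a.

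The spread of the 21 genes was close in size to that of the whole array. The standard deviation of their differences was 0.58, against 0.55 over all genes, and 15 of 21 lay within 0.5 of 0. Of the 16 with a mean level above the 75th percentile, 87.5% lay within 0.5, against 86% of all genes at such levels. The 5 below it had a median of 1.04, which is the value of Hist1h1d, whose probes lay on opposite sides of 0. Of the 5, 1 lay within 0.5 (20%), against 66.9% of all genes at such levels. The 5 include 3 of the 4 genes at least 2-fold apart (60% of the 5, against 3.12% of all genes there). Hist1h1d is 1 of these 3, and it was below 2-fold in 5 of 13 alternatives.

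**Figure D3:**
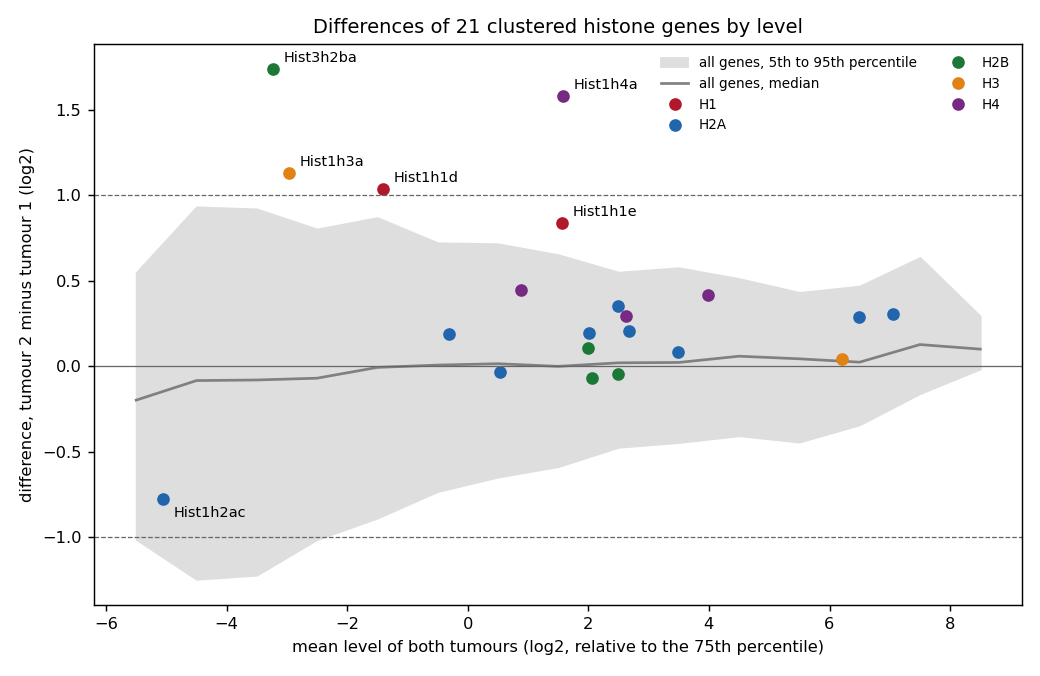
Difference of each of 21 clustered histone genes (y axis, tumour 2 minus tumour 1, log2) against its mean level (x axis, log2 relative to the 75th percentile), coloured by class, over the 5th to 95th percentile of all genes in bands of level (grey). Dashed lines mark 2-fold; Hist3h2ba, Hist1h4a, Hist1h3a, Hist1h1d and Hist1h1e lie above the grey band and most others within it.

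In bulk RNA, a gene read in fewer cells and a gene with less RNA per cell cannot be told apart. Of the muscle lineage markers 5 of 7 were measured in both tumours (Myod1, Myog, Des, Myh3 and Ckm), while Myf5 and Pax7 were above background in neither. The measured ones summed to a linear level of 1.23 in tumour 2 and 0.692 in tumour 1, with 4 of 5 higher in tumour 2. Markers of other cell types also differed. Erythroid markers summed to 39.9 in tumour 2 and 23.6 in tumour 1 (3 of 3 higher in tumour 2), and keratinocyte markers to 0.967 in tumour 2 and 0.0791 in tumour 1 (2 of 2). Neutrophil markers summed to 88.9 in tumour 2 and 68.2 in tumour 1 (2 of 2). Fibroblast markers summed to 18.1 in tumour 2 and 24.98 in tumour 1, with 4 of 4 higher in tumour 1, and endothelial markers to 2.08 in tumour 2 and 3.61 in tumour 1, also 4 of 4. Macrophage markers summed to 6.13 in tumour 2 and 6.36 in tumour 1 (1 of 3 higher in tumour 2, with Csf1r above background in neither). The single differences were -0.03 for Cd14, 0.22 for Cd68 and -0.64 for Emr1. Of the T cell markers Cd3e alone was measured, at 0.0367 in tumour 2 and 0.0311 in tumour 1, and no B cell marker was. Their part in the histone differences was not tested.

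Genes that lie beside each other were compared in pairs. Hist1h4a and Hist1h3a, 635 bases apart, differed by 1.58 and 1.13, both higher in tumour 2. Hist1h2ba and Hist1h2aa, which share an octamer, differed by -0.04 and 0.30. Hist1h2ac and Hist1h2bc, 239 bases apart, differed by -0.77 and 0.11, and Hist2h2aa1 and Hist2h3c1, 632 bases apart, by -0.03 and 0.04. Neighbours thus had like values in some pairs and unlike values in others.

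The 11 genes without a kept spot were Hist1h1a, Hist1h1b, Hist1h1c, Hist1h1t, Hist1h2ae, Hist1h2bm, Hist2h2be, Hist3h2bb, Hist1h3d, Hist1h4d and Hist1h4i. They include 4 of the 6 H1 genes.

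With all unflagged spots, and each array's percentile over those spots, levels in tumour 2 were 5.76 for Hist1h3d, 4.02 for Hist1h2bm, 3.66 for Hist1h4i, 2.49 for Hist1h4d, -0.11 for Hist1h1b, -0.64 for Hist1h2ae, -0.77 for Hist2h2be, -2.90 for Hist1h1a and -3.99 for Hist1h1t. Hist1h1c and Hist3h2bb have a flag on the spot itself in tumour 1 and no such level. Of the 14 flagged or near-flag histone spots well above background on both arrays, 8 were at least 2-fold higher in tumour 2. On the whole array 26.6% of such spots were, against 2.76% of kept spots, and these values were left out of the differences above.

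With all unflagged spots, 7 members passed 2-fold towards tumour 2, against 5.06% of all 16376 genes so measured, and none in tumour 1, against 6.27%. Scaled to kept spots, as in the other results, Hist1h4d had a difference of 5.15 with its first probe and 0.59 with its second. The spots around the first had a median difference of 0.10 and a 90th percentile of 4.97. Around Hist1h2bm, at 4.06 on that scale, the median of neighbouring spots was itself 2.14. Around Hist1h4i, at 3.40, it was 0.26, with a 90th percentile of 2.61. Around kept histone spots that median lay between -0.18 and 0.30, and around flagged or near-flag ones between -0.16 and 2.14.

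**Figure D4:**
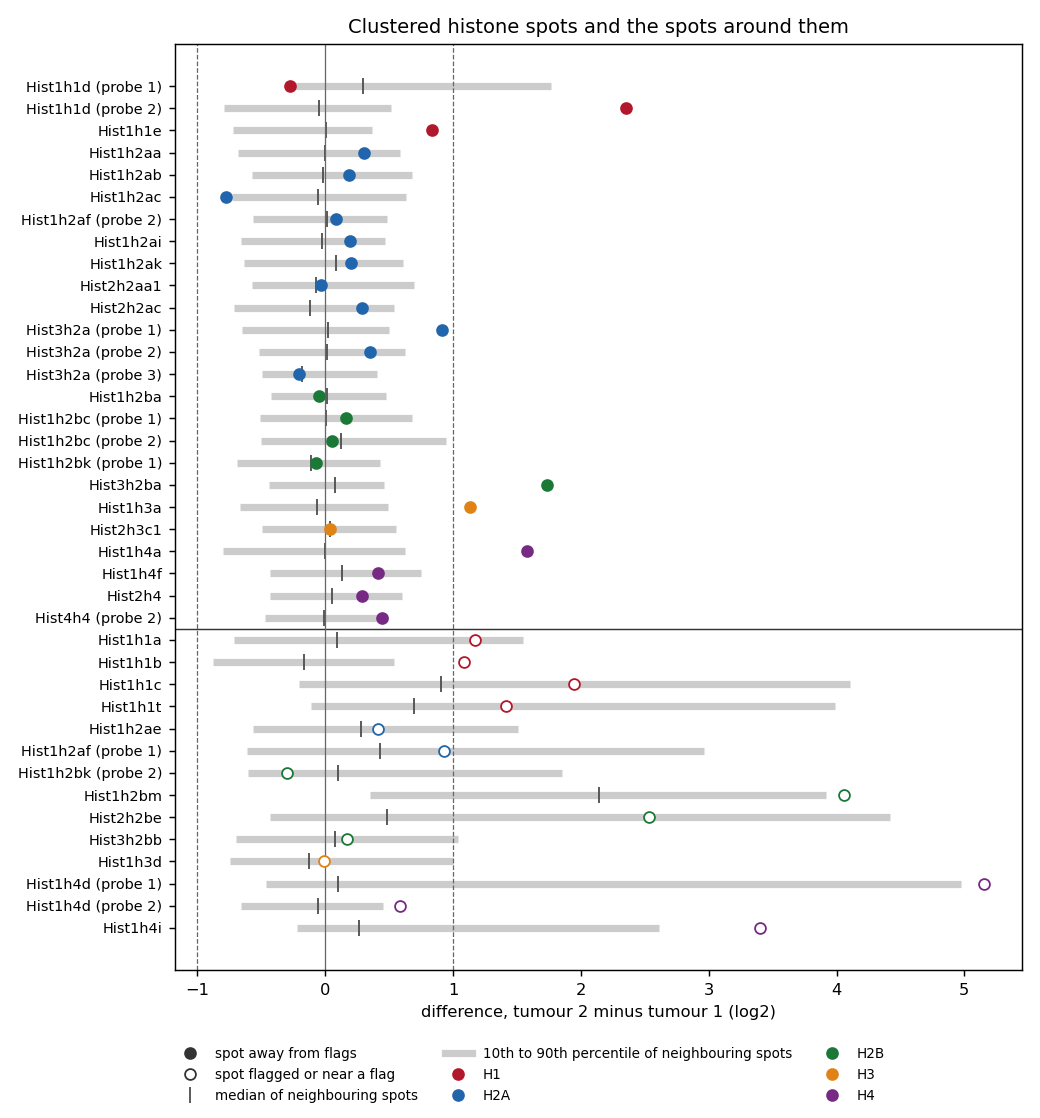
Difference of each histone spot well above background on both arrays (x axis, tumour 2 minus tumour 1, log2), with the median (tick) and 10th to 90th percentile (grey bar) of the spots within 5 rows and columns. Spots away from flags (filled, above the line) sit in neighbourhoods with medians between -0.18 and 0.30 and grey bars up to 1.77. Spots flagged or near a flag (open, below the line) reach 5.15. Their neighbourhoods have medians between -0.16 and 2.14 and grey bars up to 4.97.

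Genes that act with the clustered histones were set beside them. The replication-independent variants had a median difference of 0.11 over 9 measured genes. H1fx, a linker histone variant gene, stood at 4.38 in tumour 2 and 2.43 in tumour 1 with its 1 detected probe, differing by 1.95. The difference was at least 2-fold in each of the 12 alternatives that kept H1fx, though some, such as the brightest probe, could not change it. With positive and significant signal as detection, or with no filter on dim probes, it was 1.46. H1f0, the linker variant of non-dividing cells, had a difference of 0.57, positive in all 13. The core variants H3f3a and H2afx had differences of 0.09 and 0.15.

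Histone transcription and processing genes had a median of 0.06 over 17 genes. None was at least 2-fold apart, against 2.56% of all genes towards tumour 2 and 3.82% towards tumour 1. Slbp, whose protein binds the stem-loop, had a difference of -0.30. Npat, the coactivator of histone gene transcription, had -0.02, Lsm11, a subunit of the U7 particle that cuts histone mRNA, 0.74, and Casp8ap2 -0.55. The histone chaperones had a median of 0.15 over 16 genes. Asf1a, a chaperone for H3 and H4, stood at -4.94 in tumour 2 and -3.75 in tumour 1, and its difference of -1.19 became 2.49 with normexp. Nasp and Chaf1a had differences of 0.13 and 0.39.

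S phase genes had a median of 0.11 over 14 measured genes. None was at least 2-fold apart, against the same 2.56% and 3.82% of all genes. Pcna, the sliding clamp of DNA replication, had a difference of -0.27, and Mcm3, of the replicative helicase, 0.49. The medians of these 4 lists changed sign under at least 1 alternative each, so none gives a direction.

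**Figure D5:**
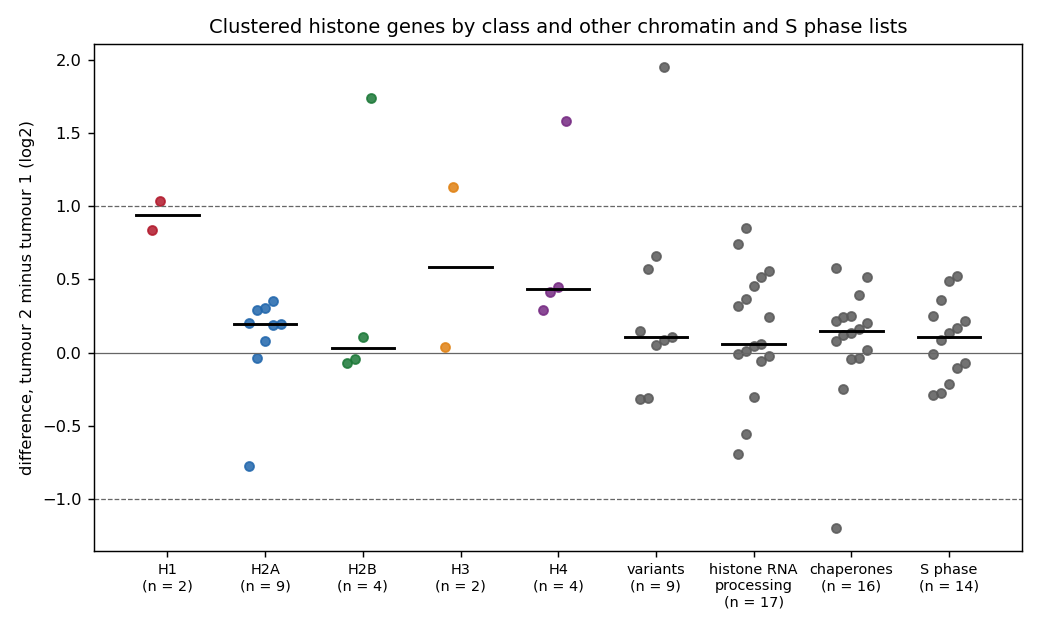
Difference of each measured gene (y axis, tumour 2 minus tumour 1, log2) for the 5 classes of clustered histone genes and for variants, histone RNA processing genes, chaperones and S phase genes, with 1 point per gene and a black bar at each median. Dashed lines mark 2-fold; 4 clustered genes and H1fx lie above the upper line and Asf1a below the lower one.

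Among lists of clustered members, the testis-expressed genes Hist1h2aa and Hist1h2ba are described above, Hist1h1t lies near a flag and Hist3h3 is not on the array under that name. Of the male germ cell markers, Prm1 and Tnp1 summed to 0.173 in tumour 2 and 0.143 in tumour 1, and Sycp3 was above background in neither. The members whose human counterparts also give polyadenylated RNA had a median of -0.05 over 4 measured genes (Hist1h2ac, Hist1h2bc, Hist1h2bk and Hist2h2aa1).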

How the data were processed

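Total RNA of 2 tumours was measured on 1 single-colour array each, and the members and lists were chosen with earlier results of these data known. The deposited intensity values are the processed signal, mean signal and local background of Agilent Feature Extraction, whose headers name version 9.1.3.1 where the submitters' processing notes name version 8, with spatial and multiplicative detrending and surrogates for low values switched on per the file headers. The deposited value table equals the processed signal, and every column belongs to a sample. An array carries 45018 spots, 43379 of them not controls. Spots flagged as outliers on either array, or standing up to 2 rows and columns from such a flag on the array of tumour 1, or within the same distance of a local background over 100 on that of tumour 2, were left out, leaving 31299 (72.15%).

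Levels are the log2 processed signal less log2 of the 75th percentile over kept spots (901.9 in tumour 2 and 995 in tumour 1). Detection of a probe needed 50% or more of its kept spots to be well above background. A gene took the median difference of its detected, unsaturated probes, tumour 2 minus tumour 1, and called means at least 2-fold. The labels give 1 group, so no test was run. A gene above background in 1 tumour only received a bound, its normalized level over the higher of the lowest level well above background and the dim probe's own level. Summed marker levels add linear signals relative to the 75th percentile.

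Named were, per class, the detected members with the 3 highest and 3 lowest differences, members at least 2-fold apart, above background in 1 tumour only or with probes that disagree, members of the lists, and members without a kept spot. Of the other lists, genes at least 2-fold apart and up to 4 others were named. R 4.3.3 with limma 3.58.1 (normexp with offset 50, quantile scaling and cyclic loess with span 0.3) and Python 3.11.15 with numpy and pandas did the computing, which was checked on simulated data. Alternatives were all unflagged spots, the lower rows only, normexp with and without the spots of high local background, quantile, loess and median scaling, the unscaled value table, other detection rules, the brighter 50% or brightest probe, subtraction of neighbouring spots, and leaving out each tumour. Promoter sequences came from RefSeq (GRCm38.p6), and no genome build of the array is given in the sources used here.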

Additional observations from a re-analysis of the deposited data

How the results depend on the processing

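The 21 clustered histone genes detected in both tumours became 11 with the lower rows only, and lay between 18 and 30 with the other settings. Leaving out each tumour left between 21 and 22 detected. The median difference of 0.29 became -0.51 with normexp and lay between 0.15 and 0.30 otherwise. The 4 members past 2-fold towards tumour 2 became 7 with all unflagged spots (Hist1h1t, Hist1h2bm, Hist1h4a, Hist1h4d, Hist1h4i, Hist2h2be and Hist3h2ba). They became 2 with normexp fitted without spots of high local background (Hist1h4a and Hist3h2ba), 2 with the unscaled value table (the same genes) and 2 with the brighter 50% of probes (Hist1h1d and Hist1h4a), and were 3 or 4 in the other settings. With normexp the 4 were Hist1h1d, Hist1h2ac, Hist1h3a and Hist3h2ba, beside 43.7% of all genes, and with no filter they were Hist1h3a, Hist1h4a, Hist2h2aa2 and Hist3h2ba, beside 3.98%. In the settings other than normexp the share of all genes lay between 1.2% and 5.06%. None was at least 2-fold higher in tumour 1 in any setting run. Of the 21 gene differences, 16 changed sign under at least 1 setting, 12 of them with normexp. Of the genes named as at least 2-fold apart, Hist1h1d turned to -0.27 with no filter on dim probes and Asf1a to 2.49 with normexp. The causes were not tested. The median of all genes moved to 0.69 with normexp, -0.18 with all unflagged spots, -0.16 with the unscaled table and -0.16 with no filter; set against it, the histone median lay between 0.22 and 0.37, except -1.19 with normexp. Of the other values, 364 stayed within the technical error of 0.27 and 47 moved further. The subtraction of the median of neighbouring spots was chosen after seeing the data. No detection count was defined without a filter. No paired analysis was possible because the labels give 1 group of 2 tumours. Dim signals limit Hist1h2ac, Hist2h2aa2, Hist3h2ba and Hist1h3a, and no member probe was printed more than once, so none has a spot error of its own.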
